A study of Mus musculus with 12 samples.

Results

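Among 31722 gene symbols measured in whole mouse hearts, 10 were examined that are known from activated fibroblasts and the matrix they make: Postn, Cilp, Comp, Thbs1, Thbs4, Sparc, Fn1, Spp1, Tnc and Fap. They were chosen by name, and all 10 were found in the table. The hearts came from C57BL/6J mice, 6 given carbon tetrachloride (CCl4, written CCL4 in the labels) and 6 of a Control group. CCl4 poisons liver cells, and repeated exposure is a common way to make rodents cirrhotic. The study was set up to learn how cirrhosis of the liver affects cardiac function. The labels state no dose, route, duration, vehicle, age or sex, they name the tissue only as heart, and no measure of liver injury was analysed here.

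When the heart is injured or overloaded, resident fibroblasts become activated, multiply and secrete matrix. Matricellular proteins are secreted into that matrix but act less as scaffold than as signals: they bind collagen, growth factors and cell surface receptors such as integrins. In the healthy adult heart most of them are scarce, and they appear again during scar formation. Postn, Thbs1, Thbs4, Sparc, Spp1 and Tnc belong to this class. Cilp and Comp are matrix proteins best known from cartilage, Fn1 is fibronectin, a structural matrix protein, and Fap is a protease on the fibroblast surface, so the label matricellular covers only some of the 10.

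The promoter windows of the genes with the largest differences are shown here, since the levels of these genes went up and down together across the hearts. RefSeq (GRCm38.p6) gave a window for 6 of the 10 genes, and the 250 bases before the start are printed for Postn (the start nearer the gene body), Cilp and Thbs4. Each is written 5′ to 3′ on the gene's own strand, and capitals mark matches to the motifs searched. Postn lies on the plus strand at chr3:54360857-54361106, Cilp on the plus strand at chr9:65264930-65265179 and Thbs4 on the minus strand at chr13:92794819-92795068.
Postn: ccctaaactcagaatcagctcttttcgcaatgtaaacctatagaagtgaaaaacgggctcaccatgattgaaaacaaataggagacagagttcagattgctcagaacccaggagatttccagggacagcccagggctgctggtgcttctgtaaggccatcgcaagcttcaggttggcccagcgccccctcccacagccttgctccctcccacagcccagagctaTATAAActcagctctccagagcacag
Cilp: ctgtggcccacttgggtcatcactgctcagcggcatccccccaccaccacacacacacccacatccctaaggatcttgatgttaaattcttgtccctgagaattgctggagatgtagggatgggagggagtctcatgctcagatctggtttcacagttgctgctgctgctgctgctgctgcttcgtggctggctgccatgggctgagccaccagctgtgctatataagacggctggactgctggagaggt
Thbs4: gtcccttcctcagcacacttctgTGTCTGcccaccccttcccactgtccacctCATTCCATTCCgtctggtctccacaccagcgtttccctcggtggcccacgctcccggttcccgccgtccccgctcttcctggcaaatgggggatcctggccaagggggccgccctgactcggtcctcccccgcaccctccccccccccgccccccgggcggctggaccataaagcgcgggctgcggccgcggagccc
The motifs, searched on both strands, were the TATA box (TATAAA), a SMAD element (CAGACA), the TEAD element (CATTCC), the AP-1 site (TGANTCA) and, by name, the CArG box bound by SRF. Postn held a TATA box starting 26 bases before the start, a motif that 12.4% of all 32851 windows hold. Thbs4 held a SMAD element, shown above as its reverse complement, as do 17.1% of windows, and a pair of overlapping TEAD elements, where 12.6% of windows hold at least 1. No searched motif matched letter for letter in the Cilp window. Only the exact letters TATAAA were searched as a TATA box, and the Cilp window holds the similar letters tatataag near its end. These matches describe letters in a short window and were not linked to the levels.

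Values are RPKM (reads per kilobase of gene scaled to the library's total), which can be compared between genes. Between hearts the comparison depends on the scaling, since each value is relative to its library's total. The relative depth of the libraries, taken from the step that 1 read adds to a value, ran from 39676537 to 63407364 in CCl4 hearts and from 26352154 to 57822039 in Control hearts. The level of every gene of the 10 rested on at least 42 steps in every heart. The 8 cardiomyocyte markers summed to 17510 to 27490 RPKM in CCl4 hearts and 24890 to 31150 RPKM in Control hearts, and none of the 8 was at 0. Xist, the transcript of the inactive X chromosome, was under 1 RPKM in replicates 2 and 5 of each group and at 19.4 to 31.1 RPKM in the others, so each group held 2 hearts without it and 4 with it. Mitochondrial transcripts took 31.6% to 43.7% of the RPKM weighted by exon length, a stand-in for reads, in CCl4 hearts. In Control hearts they took 29.4% to 37.8%. In tissue RNA of this kind, fewer cells of a type and less RNA per cell cannot be told apart.

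The genes were high in some CCl4 hearts and not in others. In 8 of the 10 genes, CCl4 replicates 3, 5 and 6 were all higher than the highest Control heart, and CCl4 replicates 1, 2 and 4 were so in 0 of the 10. Over all 14087 genes tested, 7.62% had these 3 CCl4 hearts above every Control heart. The summed level of the 10 genes was 88.7, 124.8, 1104, 138.2, 428.9 and 546.3 RPKM in CCl4 replicates 1 to 6, against 118.4 to 182.2 RPKM in Control hearts. The largest ratios of group means were those of Thbs4, Cilp and Postn, whose CCl4 means were 9.23, 8.55 and 8.38 times the Control means.

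No gene of the 10 passed the test between the groups after adjustment over all genes tested, so none of the differences of means below is established by that test. The test was limma's trend fit on log2(RPKM + 1), with Benjamini-Hochberg adjustment over all 14087 genes, a threshold of 0.05 and both directions allowed. It called 0% of all genes, the nearest having an adjusted p of 0.0731. Cilp, Postn, Fap and Thbs4 were higher with an unadjusted p under 0.05, as were 1.6% of all genes, and 0 of the 10 were lower with one, against 8.58% of all genes. That count of 4 was 2 without CCl4 replicate 3, 5 or 6 or Control replicate 4, 6 without CCl4 replicate 1, and 2 by the exact permutation test. An exact two-sided permutation test over all splits of the 12 hearts into 6 and 6, whose smallest p is 0.00216, called 0 genes after adjustment and had 1488 at an unadjusted p under 0.05. All 10 genes had a log2 fold change above 0, as did 34.3% of all genes tested, and 4 had one above 1, as did 0.163%. In the other direction, 7 genes had at least 1 CCl4 heart below every Control heart, as did 78.8% of all genes. At least 3 CCl4 hearts exceeded all Control hearts for 8 genes, as for 10.4% of all genes. Their median log2 fold change was 0.70, against -0.05 over all genes tested. Tnc, at 0.5 RPKM or more in only 3 hearts, did not meet the filter and was not tested, so 9 genes were. Without CCl4 replicate 3 the median of the 10 was 0.39.

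**Figure D1:**
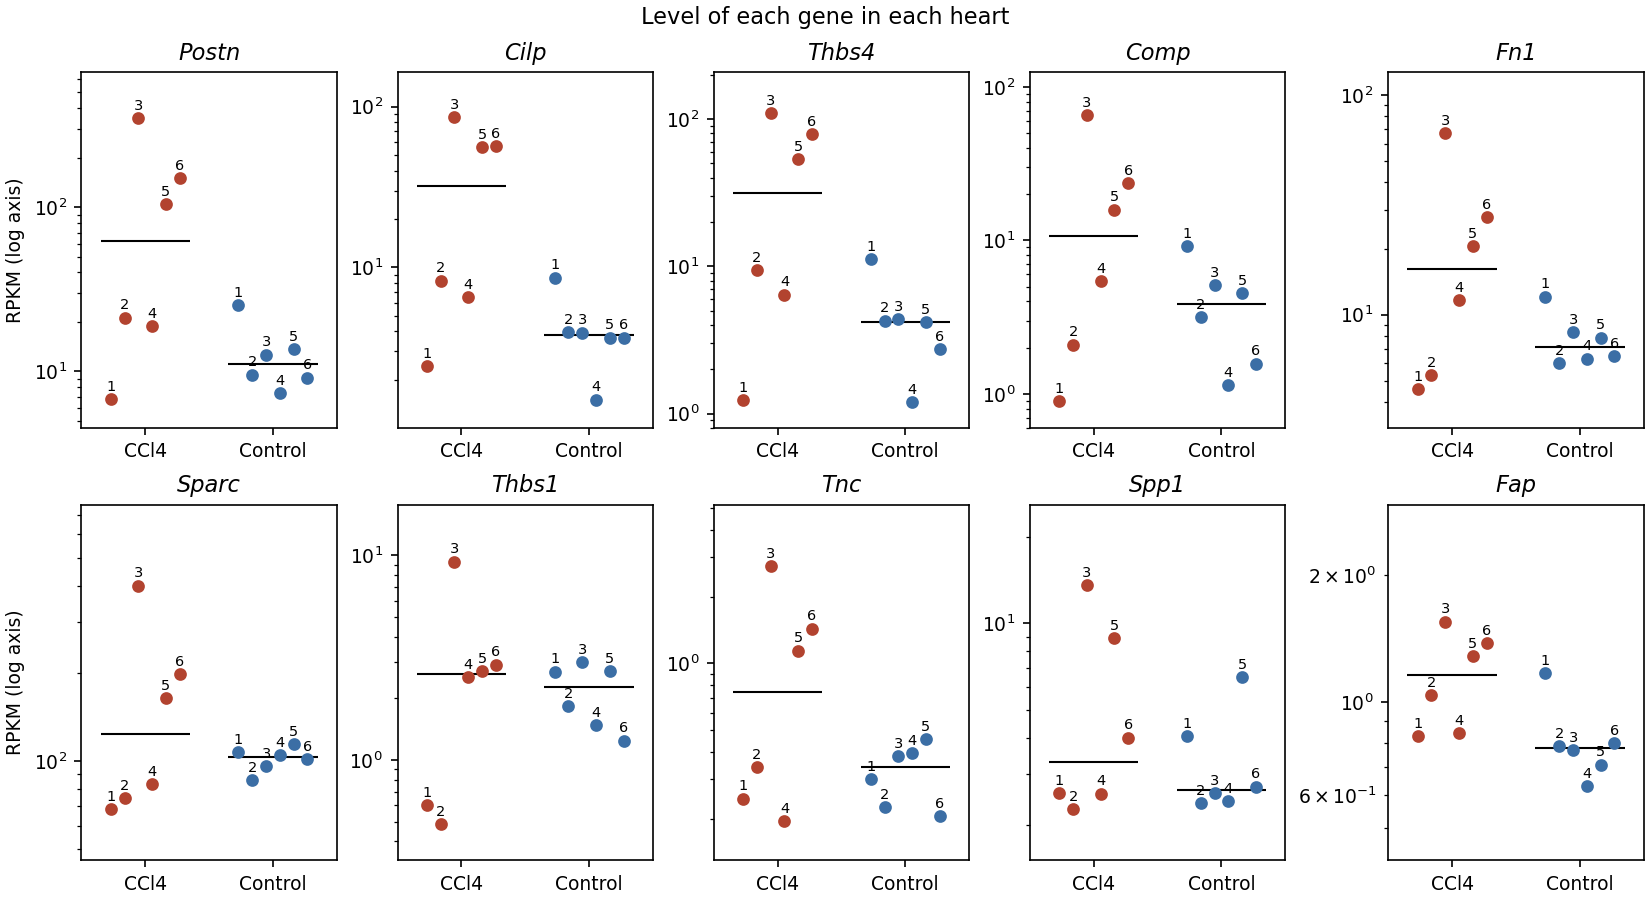
RPKM of each of the 10 genes (log axis) in each heart, CCl4 hearts left and Control hearts right, with the replicate number above each point and a line at the group median. CCl4 replicate 3 was the highest of the CCl4 hearts in all 10 genes, and CCl4 replicates 5 and 6 followed it in most.

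Postn encodes periostin, a secreted protein that helps cross-link collagen and is the usual mark of activated fibroblasts in the injured heart. It was at 6.78, 21.2, 349, 18.8, 104 and 151 RPKM in CCl4 replicates 1 to 6, against a lowest, median and highest value of 7.33, 11.1 and 25.4 RPKM in Control hearts. Replicates 3, 5 and 6 were 31.5, 9.39 and 13.6 times the Control median, and replicate 1 lay below every Control heart. The groups overlapped through replicates 2 and 4. The means were 108 ± 131 RPKM in CCl4 and 12.9 ± 6.53 RPKM in Control hearts (SD, n = 6 each). The log2 fold change, always of RPKM + 1, was 2.00 (SE 0.76, limma adjusted p = 0.383, exact permutation p = 0.0563), with 5 of 6 CCl4 hearts above the Control median. Without CCl4 replicate 3 it was 1.45.

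Cilp, cartilage intermediate layer protein, is a secreted matrix protein that can bind TGF-beta and is made by cardiac fibroblasts. Its levels were 2.42, 8.24, 86.1, 6.53, 56.1 and 56.8 RPKM in CCl4 replicates 1 to 6, against 1.501, 3.78 and 8.63 RPKM as the lowest, median and highest of the Control hearts. CCl4 replicate 3 was 9.98 times the highest Control heart, replicates 5 and 6 were close to each other, and no CCl4 heart was below the Control range. Of the 10 genes it had the smallest p (log2 fold change 2.07, SE 0.71, limma adjusted p = 0.348, exact permutation p = 0.0346), with 5 of 6 CCl4 hearts above the Control median.

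Thbs4, Comp and Thbs1 belong to the thrombospondins, secreted calcium-binding proteins that assemble as pentamers (Thbs4 and Comp) or trimers (Thbs1). Thbs4 is known from the overloaded heart, where it also acts in the protein-folding response of muscle cells. It was at 1.24, 9.38, 109, 6.43, 53.4 and 78.5 RPKM in CCl4 replicates 1 to 6, against 1.20, 4.22 and 11.2 RPKM as the lowest, median and highest Control values. CCl4 replicate 1 and Control replicate 4 were nearly equal at the low end, while CCl4 replicates 3, 5 and 6 were 25.9, 12.7 and 18.6 times the Control median. The log2 fold change was 2.07 (SE 0.83, limma adjusted p = 0.404, exact permutation p = 0.0714), with 5 of 6 CCl4 hearts above the Control median.

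Comp, a protein of cartilage and tendon that organises collagen fibrils, reached 65.6 RPKM in CCl4 replicate 3. The other CCl4 hearts, replicates 1, 2, 4, 5 and 6, were at 0.899, 2.09, 5.42, 15.9 and 23.7 RPKM, against 1.14, 3.86 and 9.19 RPKM as the lowest, median and highest of the Control hearts. Replicate 1 lay below all Control hearts and replicate 2 below their median, so Comp spread in both directions. Its log2 fold change of 1.17 (SE 0.74, limma adjusted p = 0.616) was 0.63 without CCl4 replicate 3.

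Thbs1, the family member that activates latent TGF-beta and is also stored in platelets, showed another order of hearts. It was at 0.599, 0.486, 9.33, 2.54, 2.71 and 2.92 RPKM in CCl4 replicates 1 to 6, against 1.24, 2.27 and 3.002 RPKM as the lowest, median and highest Control values. Only replicate 3 exceeded the Control hearts, replicates 5 and 6 lay inside their range, and replicates 1 and 2 lay below all of them. The mean log2 difference was 0.09 (SE 0.38, limma adjusted p = 0.957), and its sign turned to -0.24 without CCl4 replicate 3. The platelet gene Pf4 was at 7.24 ± 2.37 RPKM in CCl4 and 7.23 ± 1.35 RPKM in Control hearts (SD, n = 6 each), with its highest value also in CCl4 replicate 3.

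Sparc and Fn1 split the CCl4 hearts to both sides of the Control range. Sparc, osteonectin, a collagen-binding protein that aids the processing of procollagen, was the most abundant of the 10. It was at 68.6, 74.5, 400.3, 83.2, 165 and 199 RPKM in CCl4 replicates 1 to 6, against 86.2, 103 and 115 RPKM as the lowest, median and highest Control values. No CCl4 heart lay inside the Control range: replicates 3, 5 and 6 were above all Control hearts and replicates 1, 2 and 4 below all of them. The log2 fold change of the means was 0.39 (SE 0.36, limma adjusted p = 0.75), and it was 0.08 without CCl4 replicate 3. Fn1, fibronectin, is the early matrix on which collagen is laid down. It was at 4.57, 5.29, 66.9, 11.6, 20.5 and 27.8 RPKM in CCl4 replicates 1 to 6, against 6.01, 7.16 and 12.1 RPKM as the lowest, median and highest Control values. Again replicates 3, 5 and 6 were above and replicates 1 and 2 below all Control hearts, and replicate 4 was near the highest Control heart. The log2 fold change was 0.92 (SE 0.50, limma adjusted p = 0.552), or 0.50 without CCl4 replicate 3.

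Tnc and Spp1 are matricellular genes best known from acute inflammation and repair. Tenascin-C (Tnc) loosens cell contacts at wound edges. It was at 0.246, 0.341, 2.74, 0.195, 1.14 and 1.43 RPKM in CCl4 replicates 1 to 6, against 0.205, 0.342 and 0.456 RPKM as the lowest, median and highest Control values. Replicates 3, 5 and 6 were the only hearts of the 12 above 1 RPKM (log2 difference 0.47, exact permutation p = 0.152, not tested with limma). That difference was 0.27 without CCl4 replicate 3 and 0.92 with a pseudocount of 0.1. Osteopontin (Spp1), a ligand of integrins and Cd44 made by macrophages as well as fibroblasts, was at 2.58, 2.26, 13.6, 2.57, 8.90 and 4.02 RPKM in CCl4 replicates 1 to 6. Control hearts had 2.38, 2.65 and 6.51 RPKM as the lowest, median and highest values. CCl4 replicate 6 stayed inside the Control range, below Control replicate 5, as Thbs1 also did in that CCl4 heart relative to its own range. The log2 fold change was 0.39 (SE 0.36, limma adjusted p = 0.747), or 0.12 without CCl4 replicate 3 and 0.23 without CCl4 replicate 5.

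Fap, fibroblast activation protein, is a membrane protease and the only gene of the 10 whose 6 CCl4 values all exceeded the median Control value. It was also among the lowest: 0.829, 1.04, 1.55, 0.841, 1.28 and 1.38 RPKM in CCl4 replicates 1 to 6, against 0.630, 0.776 and 1.17 RPKM as the lowest, median and highest Control values. Replicates 3, 5 and 6 were again above all Control hearts, but by far less than for Postn, with replicate 3 at 2.00 times the Control median. The log2 fold change was 0.25 (SE 0.10, limma adjusted p = 0.404, exact permutation p = 0.0368). It was 0.45 with a pseudocount of 0.1 and 0.49 with voom. Its related protease gene Dpp4 was at 1.26 RPKM in CCl4 and 1.52 RPKM in Control hearts (log2 fold change -0.19, limma adjusted p = 0.775).

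**Figure D2:**
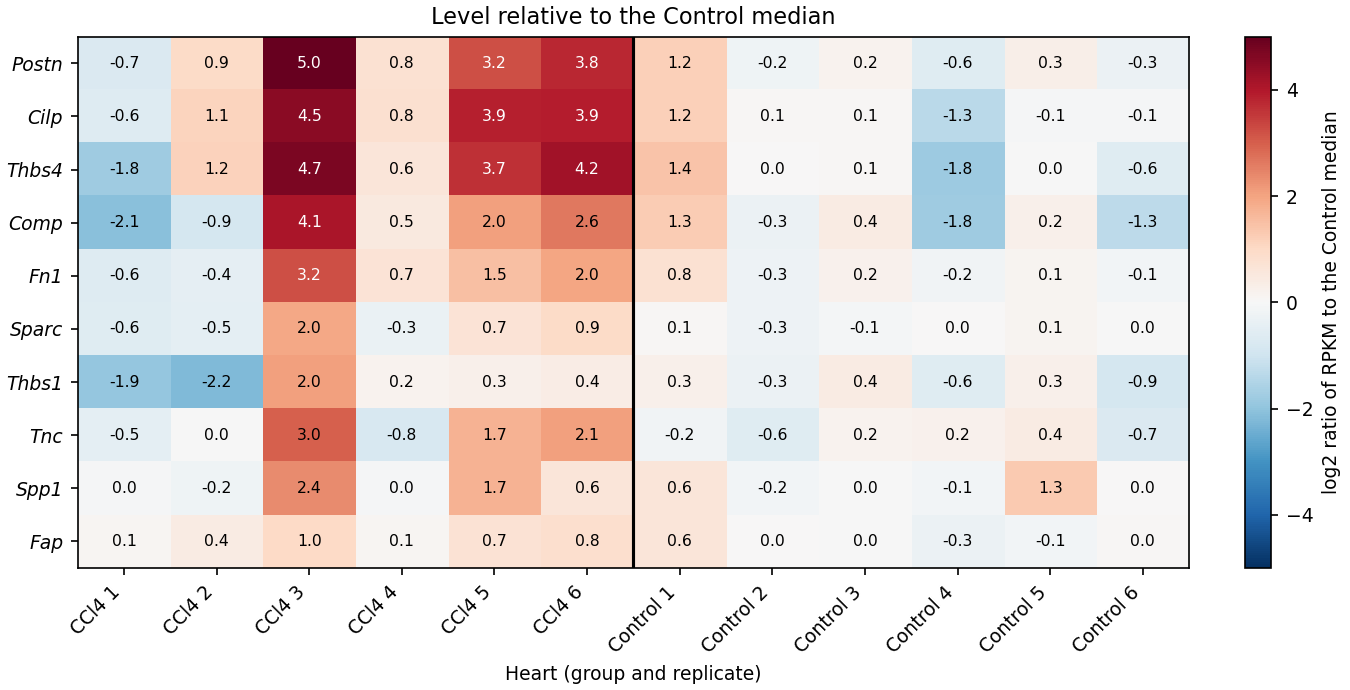
Colour and number give the log2 ratio of each gene's RPKM to its Control median, with genes in rows and hearts in columns, CCl4 left of the line and Control right of it. Columns CCl4 3, 5 and 6 are red throughout, CCl4 1 and 2 hold more blue cells than the other CCl4 columns, and Control 1 has the highest Control value in 6 rows.

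The 10 genes differed from heart to heart far more in CCl4 than in Control mice. The SD of log2(RPKM + 1) between hearts was larger in the CCl4 group for all 10, as for 75.7% of all genes tested. Its median over the 10 genes was 1.20 in CCl4 hearts and 0.40 in Control hearts, against 0.21 in CCl4 and 0.14 in Control hearts over all genes tested. The highest CCl4 heart was 88.2 times the lowest for Thbs4, 72.9 times for Comp and 51.5 times for Postn. In Control hearts the same ratio was 9.33 for Thbs4, 8.09 for Comp and 3.46 for Postn. Fap was the steadiest gene among CCl4 hearts, with ratios of 1.87 in CCl4 and 1.86 in Control hearts. CCl4 replicate 3 was the highest CCl4 heart for all 10 genes, as for 55.8% of all genes tested, and CCl4 replicate 1 the lowest for 7 of them, as for 23.9% of all genes.

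**Figure D3:**
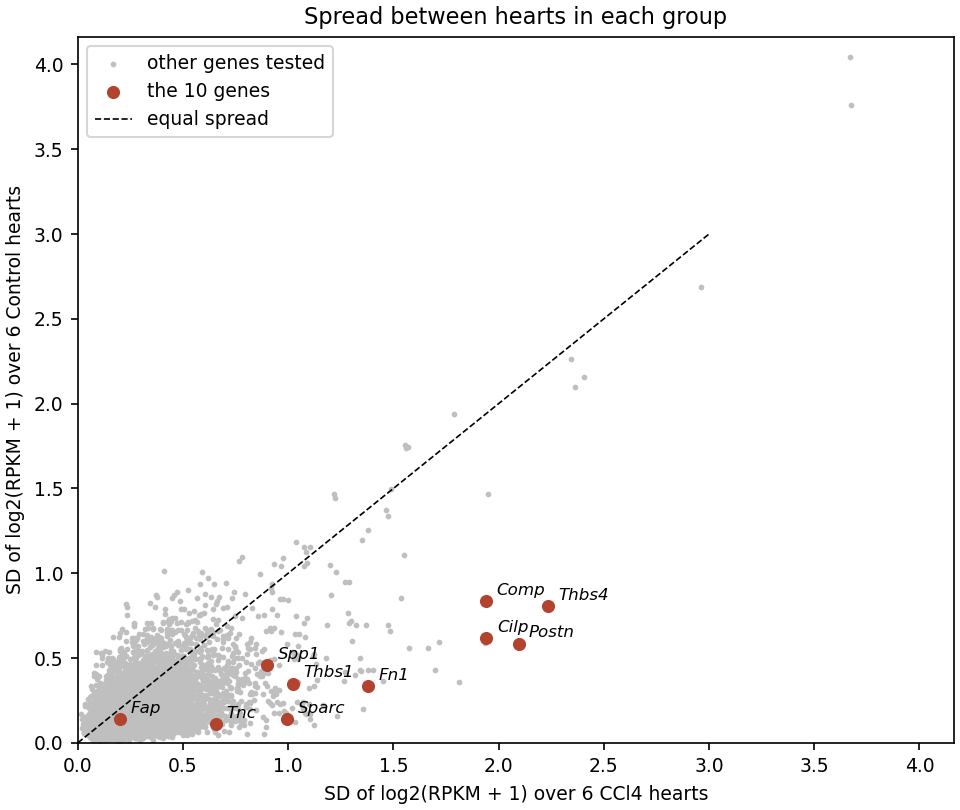
SD of log2(RPKM + 1) between the 6 CCl4 hearts (x axis) and between the 6 Control hearts (y axis) for all genes tested (grey) and the 10 genes (red); points under the dashed line varied more in CCl4 hearts. All 10 lie under it, with Thbs4, Postn, Cilp and Comp farthest to the right and Fap close to the line.

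Control hearts were not uniform either. Control replicate 1 was the highest Control heart for 6 of the 10 genes (Postn, Cilp, Comp, Thbs4, Fn1 and Fap), as for 28.8% of all genes tested. It was also richest in the atrial light chain Myl7, at 419 RPKM, where the other Control hearts held 9.47 to 181 RPKM. CCl4 replicate 4, with 307 RPKM of Myl7, was the CCl4 heart richest in it, and CCl4 replicates 3, 5 and 6 held 28.7, 8.84 and 0.811 RPKM. The 5 atrial markers summed to 833 to 11720 RPKM in CCl4 and 604 to 15040 RPKM in Control hearts, and the sum is mostly Nppa, a stress gene of the ventricle as well. In a fit that also held the mean level of Myl7, Myl4, Sln and Bmp10 in each heart, the log2 fold changes were 1.98 for Thbs4, 1.92 for Cilp and 1.88 for Postn, and 2 of the 10 genes, Cilp and Postn, had an unadjusted p under 0.05. With the heart richest in Myl7 left out of each group, a choice made after seeing the data, the log2 fold changes were 2.63 for Thbs4, 2.55 for Cilp and 2.48 for Postn. That fit still held Control replicates 2, 3 and 5, with Myl7 at 141, 181 and 179 RPKM. The remaining CCl4 hearts held 0.811 to 28.7 RPKM, so the groups still differed in this atrial gene. In both fits 0 of the 10 genes passed.

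The order of the genes changed little between the groups at its ends. By median level the CCl4 order was Sparc, Postn, Cilp, Thbs4, Fn1, Comp, Spp1, Thbs1, Fap and Tnc, and the Control order was Sparc, Postn, Fn1, Thbs4, Comp, Cilp, Spp1, Thbs1, Fap and Tnc. In Control hearts the ranges of neighbouring genes did not overlap between Sparc and Postn, between Thbs1 and Fap, or between Fap and Tnc, and the other neighbours overlapped. In CCl4 hearts the ranges of all neighbours overlapped. Within a heart, Cilp exceeded Fn1 in CCl4 replicates 2, 3, 5 and 6 and in no Control heart. Postn came closest to Sparc in CCl4 replicate 3, at 349 and 400.3 RPKM.

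General fibroblast markers gave a smaller contrast between hearts in sum. Their 11 genes summed to 387, 361, 857, 576, 538 and 589 RPKM in CCl4 replicates 1 to 6, against 352 to 759 RPKM in Control hearts, so only CCl4 replicate 3 left the Control range upwards. The top of that range was Control replicate 1 alone. The other Control hearts were at 352 to 509 RPKM, below CCl4 replicates 3, 4, 5 and 6. That sum was mostly Gsn, Dcn and Dpt. Of these 11, 8 were higher and 3 lower with a median log2 fold change of 0.35, and 0 passed the test. In 3 of them, Pi16, Col15a1 and Mfap4, CCl4 replicates 3, 5 and 6 were above all Control hearts, the pattern of most of the 10 genes. Set against Pdgfra, a receptor carried by cardiac fibroblasts, the Postn level was 3.41, 7.74, 55.1, 4.83, 24.5 and 34.1 times that of Pdgfra in CCl4 replicates 1 to 6, against 3.38 to 5.95 times in Control hearts. For Cilp the same ratio ran 1.22, 3.004, 13.6, 1.67, 13.2 and 12.9 over CCl4 replicates 1 to 6, and Control hearts held 0.829 to 1.82. The Fap to Pdgfra ratio was 0.417, 0.378, 0.245, 0.216, 0.302 and 0.312 in CCl4 replicates 1 to 6 and 0.246 to 0.348 in Control hearts. CCl4 replicates 1 and 2 were thus above the Control range in that ratio, and replicates 3 and 4 below it. For Thbs4, Comp, Fn1 and Tnc the ratio to Pdgfra exceeded all Control hearts in CCl4 replicates 3, 5 and 6. For Sparc and Thbs1 it did so in replicate 3 alone, at 63.1 and 1.47, against highest Control ratios of 57.9 and 1.18. For Spp1 no CCl4 heart did, with a highest ratio of 2.15 in CCl4 and 2.84 in Control hearts.

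The genes whose pattern over the 12 hearts was most like that of the 9 tested genes included 5 collagens. Likeness was measured as the Pearson correlation with the mean profile of the 9 genes, each centred and scaled. Gene models without a descriptive symbol were left out of the ranking. The 10 closest of the remaining tested genes were Col1a1, Col5a2, Col16a1, Col3a1, Serpine2, Tgfb3, Adamts2, Ltbp2, Col1a2 and Uchl1os, at r = 0.994 to 0.982 (Spearman's rho 0.916 to 0.979). These correlations describe genes picked for being closest, over hearts that share 1 library each among all genes, and carry no test. All 10 of these genes exceeded every Control heart in CCl4 replicates 3, 5 and 6 and in no other CCl4 heart. Ltbp2, a protein of elastic microfibrils, had the largest log2 fold change of these 10, at 0.271, 0.819, 25.9, 1.027, 9.27 and 11.3 RPKM in CCl4 replicates 1 to 6 and 0.127 to 1.40 RPKM in Control hearts. Tgfb3, a TGF-beta ligand, was at 9.08 ± 6.59 RPKM in CCl4 and 4.91 ± 1.18 RPKM in Control hearts (SD, n = 6 each; limma adjusted p = 0.6254). Adamts2, which trims procollagen, was at 4.17 ± 3.38 and Serpine2, a protease inhibitor, at 3.69 ± 2.66 RPKM in CCl4 hearts, against 1.56 ± 0.609 and 1.68 ± 0.415 RPKM in Control hearts.

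Other matricellular genes were divided. The list had 25 genes with values, of which 17 were tested, 7 higher and 10 lower, with a median log2 fold change of -0.02, and 0 passed; 5 had at least 3 CCl4 hearts above all Control hearts, against 10.4% of all genes tested. Wisp2, a member of the CCN family, was at 11.01 ± 13.03 RPKM in CCl4 and 1.46 ± 1.24 RPKM in Control hearts (SD, n = 6 each; log2 fold change 1.70, limma adjusted p = 0.348). Smoc2, a relative of Sparc, was at 14.5 ± 4.49 RPKM in CCl4 and 10.3 ± 2.16 RPKM in Control hearts (adjusted p = 0.455). The thrombospondins Thbs2 (5.07 RPKM in CCl4, 2.79 RPKM in Control hearts) and Thbs3 (5.45 RPKM in CCl4, 2.96 RPKM in Control hearts) exceeded all Control hearts in CCl4 replicates 3, 5 and 6, as Thbs4 and Comp did. Spon2 was lower, at 0.292 RPKM in CCl4 and 0.831 RPKM in Control hearts (adjusted p = 0.296). Sparcl1, the nearest relative of Sparc and made largely by vascular cells, was at 389 RPKM in CCl4 and 398 RPKM in Control hearts (log2 fold change -0.07), and Tgfbi, the paralog of Postn, at 8.04 RPKM in CCl4 and 6.17 RPKM in Control hearts (0.25, adjusted p = 0.81).

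Of 20 receptors of these proteins tested, 13 were higher and 7 lower, with a median log2 fold change of 0.02, and 0 passed. At least 3 CCl4 hearts were above all Control hearts for 7 of the 20, against 10.4% of all genes tested. Cd36, a receptor of Thbs1 and a fatty acid carrier of endothelial and muscle cells, had the smallest p of the list and was lower in CCl4 hearts, at 44.9 ± 8.76 RPKM, against 79.6 ± 16.4 RPKM in Control hearts (SD, n = 6 each; log2 fold change -0.81, limma adjusted p = 0.0949). On the higher side, the collagen-binding integrin Itga11 was at 2.10 ± 1.45 RPKM in CCl4 and 0.874 ± 0.226 RPKM in Control hearts (adjusted p = 0.386), and Itgb5, a partner in the integrin that binds periostin, at 15.3 ± 9.28 RPKM in CCl4 and 8.53 ± 1.49 RPKM in Control hearts (adjusted p = 0.512). The receptors Cd47 of Thbs1 and Cd44 of Spp1 had log2 fold changes of 0.003 and -0.06.

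The TGF-beta system, which drives fibroblast activation, had 10 genes higher and 11 lower of 21 tested, with a median log2 fold change of -0.001, and 0 passed; 8 had at least 3 CCl4 hearts above all Control hearts. Within it, the ligands Tgfb2 and Tgfb3, the receptors Tgfbr1 and Tgfbr2, and Ltbp2, Ltbp3 and Bmp1 exceeded all Control hearts in CCl4 replicates 3, 5 and 6, Tgfbr1 in replicate 4 too. Tgfb1 did so in replicate 3 alone and was at 3.01 RPKM in CCl4 and 3.26 RPKM in Control hearts. Smad7, the inhibitor of the pathway, was at 1.59 ± 0.548 RPKM in CCl4 and 2.19 ± 0.280 RPKM in Control hearts (SD, n = 6 each; log2 fold change -0.32, adjusted p = 0.404). Eng, an endothelial co-receptor, was at 21.9 ± 4.11 RPKM in CCl4 and 27.7 ± 3.66 RPKM in Control hearts (adjusted p = 0.377).

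Further genes of activated fibroblasts leaned the way of the 10. Of 15 tested 12 were higher and 3 lower, with a median log2 fold change of 0.59, 0 passed, and 11 had at least 3 CCl4 hearts above all Control hearts. Sfrp2, a secreted Wnt modulator, was at 18.3 ± 21.01 RPKM in CCl4 and 2.11 ± 1.46 RPKM in Control hearts (SD, n = 6 each; log2 fold change 1.81, adjusted p = 0.398), and Col8a1, a short-chain collagen, at 14.5 ± 14.2 RPKM in CCl4 and 2.63 ± 1.02 RPKM in Control hearts (1.57, adjusted p = 0.332). Cthrc1, a secreted mark of matrix-producing fibroblasts in the infarcted heart, did not meet the filter, with means of 4.17 RPKM in CCl4 and 0.210 RPKM in Control hearts. Acta2, the smooth muscle actin that marks contractile myofibroblasts, was lower, at 39.1 ± 9.02 RPKM in CCl4 and 59.9 ± 15.2 RPKM in Control hearts (-0.60, adjusted p = 0.272). Vascular smooth muscle also makes Acta2, and all 6 smooth muscle markers, Acta2 included, were lower, with 232 ± 35.03 RPKM in sum in CCl4 and 292 ± 62.6 RPKM in Control hearts (0 passed). Of the fibrillar collagens, 5 of 6 tested were higher and Col5a3 was lower (4.19 RPKM in CCl4, 6.03 RPKM in Control hearts).

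**Figure D4:**
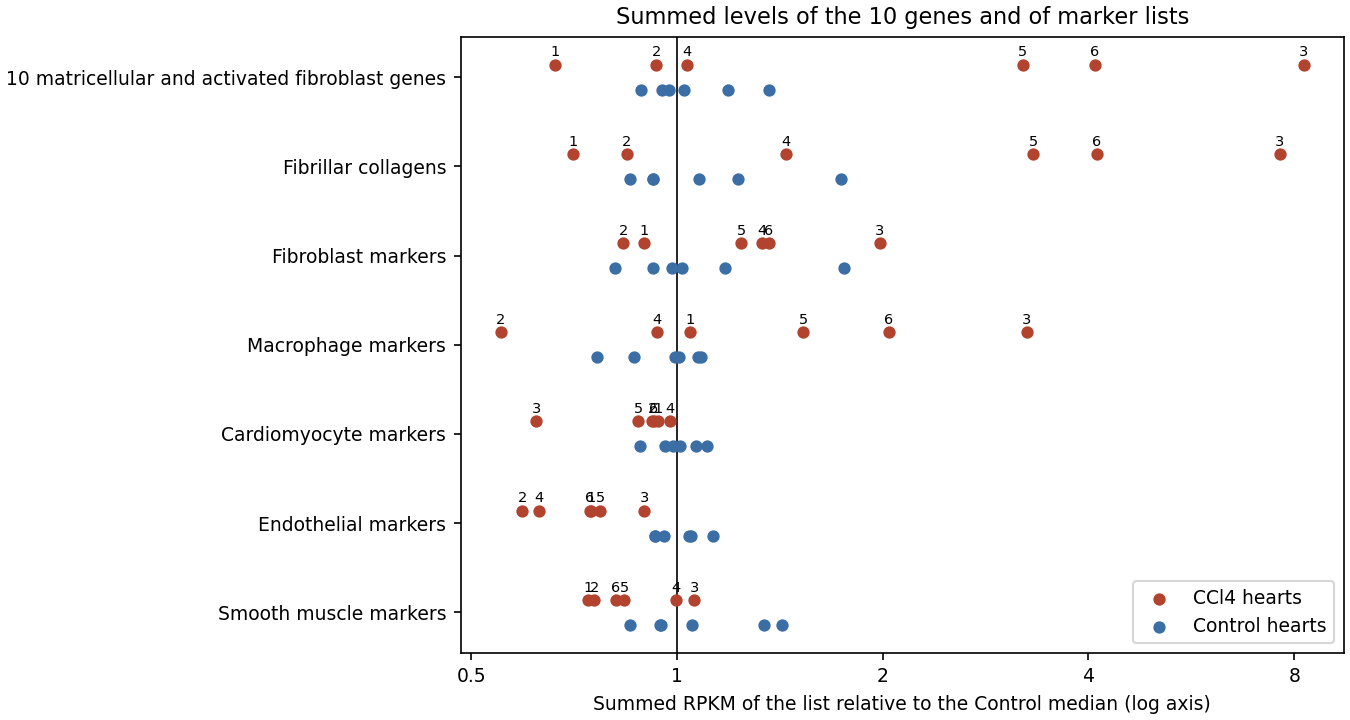
Summed RPKM of the 10 genes, of fibrillar collagens and of cell type marker lists in each heart, divided by the Control median of that sum (log axis), with CCl4 hearts above Control hearts in each row and CCl4 replicates numbered. CCl4 replicates 3, 5 and 6 stand to the right for the 10 genes, collagens and macrophage markers, and replicate 3 stands to the left for cardiomyocyte markers.

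Markers of other cell types moved in the same hearts, and their part in the result was not tested. The 9 macrophage markers summed to 76.9, 40.7, 239, 68.9, 113 and 150 RPKM in CCl4 replicates 1 to 6, against 56.3 to 79.8 RPKM in Control hearts. Of these markers 8 were higher and 1 lower (0 passed), 8 had at least 3 CCl4 hearts above all Control hearts, and none was at 0. Adgre1 was at 1.68 ± 1.41 RPKM in CCl4 and 0.661 ± 0.198 RPKM in Control hearts, and Cd68 at 6.55 ± 5.12 RPKM in CCl4 and 3.23 ± 0.155 RPKM in Control hearts (SD, n = 6 each). Trem2 and Gpnmb, known from macrophages that make Spp1, were at 0.615 and 0.529 RPKM in CCl4 hearts, against 0.191 and 0.298 RPKM in Control hearts, and neither met the filter. Of the same list of 6 recruited macrophage genes, Lgals3 and Ccr2 also had higher means in CCl4 hearts. Fabp5 was lower, at 36.3 RPKM in CCl4 and 56.9 RPKM in Control hearts (log2 fold change -0.66, limma adjusted p = 0.181). Cd9 was nearly equal, at 8.74 RPKM in CCl4 and 8.52 RPKM in Control hearts. The 8 cardiomyocyte markers summed to 17510 RPKM in CCl4 replicate 3, below all Control hearts, to 24720 RPKM in CCl4 replicate 5, also below them, and to 26030 RPKM in CCl4 replicate 6, against 24890 to 31150 RPKM in Control hearts; 7 of the 8 were lower and 0 passed. The 7 endothelial markers were lower in sum in all 6 CCl4 hearts (98.3 to 148 RPKM) than in any Control heart (153 to 187 RPKM). Of single genes tested, 0.76% had groups that did not overlap. All 7 markers had lower means, but 0 passed. Among them Emcn was nearly equal, at 4.86 RPKM in CCl4 and 5.10 RPKM in Control hearts (log2 fold change -0.06). Platelet, hepatocyte and lymphocyte markers had low sums, at 5.86 to 14.1, 0.595 to 4.70 and 0.414 to 1.85 RPKM in CCl4 hearts, against 6.58 to 11.6, 0.999 to 7.36 and 0.590 to 1.14 RPKM in Control hearts. The platelet sum was mostly Pf4. Mesothelial and adipocyte markers, like the atrial ones, had their highest CCl4 sums in replicate 4, at 17.3 and 37.7 RPKM, and their highest Control sums in replicate 1, at 18.2 and 33.3 RPKM. All 5 red cell genes were higher, with sums of 157 to 244 RPKM in CCl4 and 116 to 235 RPKM in Control hearts, and 0 passed. Of pericyte, recruited macrophage, skeletal muscle and Schwann cell markers, 1 of 5, 1 of 3, 1 of 3 and 0 of 2 tested were higher, and 0 passed. Valve and cartilage markers, which accompany Comp, Cilp and Thbs4 in valves and tendons, summed to 12.03, 17.2, 79.8, 44.7, 34.95 and 44.4 RPKM in CCl4 replicates 1 to 6, against 13.4 to 52.6 RPKM in Control hearts. Of its 6 tested genes 4 were higher and 2 lower, and CCl4 replicate 3 alone was above the Control range in sum. The top of that range was again Control replicate 1. The other Control hearts summed to 13.4 to 26.7 RPKM, below CCl4 replicates 3, 4, 5 and 6.

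With limma's array weights, which give less weight to hearts far from the fit, 6 of the 10 genes were called higher (Postn, Cilp, Thbs4, Comp, Fn1 and Fap), with 5.47% of all genes called higher. Those weights were 5.70 for CCl4 replicate 5, 1.23 for CCl4 replicate 6 and 0.258 to 0.856 for the other CCl4 hearts. Hearts without Xist and hearts with it were also compared apart: the median log2 fold change of the 10 genes was 0.45 in the 2 CCl4 and 2 Control hearts without Xist and 0.82 in the 4 CCl4 and 4 Control hearts with it, and 0 of the 10 passed in either. A few genes overlap others in the annotation (Fn1 with Apol7d, Tnc with 8030451A03Rik and Thbs1 with Gm29233 on the opposite strand, Spp1 with Gm42793 on the same strand), and the strand setting of the counting was not given in the sources used here.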

How the data were processed

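RNA from 12 mouse hearts, 6 CCl4 and 6 Control, was sequenced, and the authors deposited RPKM values per gene symbol. Per the submitters' processing notes, reads were trimmed with Trimmomatic 0.36 and counted with featureCounts of Subread 1.5.1 on GRCm38. The aligner, annotation release and strand setting are not given in the sources used here. P-values measure only the spread between these samples, which may be technical where the labels do not say that each came from its own animal. RPKM values are not counts, and were tested with limma 3.58.1 (R 4.3.3) as log2(RPKM + 1), which understates changes of low genes, over genes at 0.5 RPKM or more in at least 6 libraries. Figures and summaries used Python 3.11.15. The fit was tested on simulated data in which all genes shared a common spread, set from the median over the tested genes. Most of the 10 genes varied far more between CCl4 hearts (median SD 1.20, against 0.21 over all genes tested). The simulation therefore does not show how the fit treats such genes. Exon lengths of GENCODE M21, matched to 30270 of 31722 symbols, gave the value of 1 read in each library, and 92.6% to 93.9% of low values lay within 0.05 of a whole number of such steps. In the table, 11 symbols had been turned into dates.

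All 10 genes are named, with up to 4 genes of smallest p per list and the 10 genes of closest pattern. Other genes named from the lists were chosen after their values were seen. The genes and lists were chosen with earlier results of these data known. Alternatives were another pseudocount, filters, scalings, voom, array weights, an exact permutation test, a replicate block, an atrial covariate and each heart left out. Those on Xist and on leaving out 2 atrium-rich hearts were chosen after seeing the data.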

Additional observations from a re-analysis of the deposited data

Results flagged for a closer look

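In groups of 6, a heart was picked out where its gap to the nearest heart was too large a share of the group's range by Dixon's criterion. For normally distributed values chance alone meets it in about 1 in 20 groups. It was applied to RPKM and not to log values, so high hearts stood out more easily. Many of these genes also varied together, so the number of flags cannot be set against that rate. Among Control hearts, replicate 1 stood apart as the highest for Postn (25.4 RPKM), Cilp (8.63), Thbs4 (11.2), Fap (1.17), Col1a1 (21.02), Col16a1 (5.41), Adamts2 (2.73), Col1a2 (11.8), Wisp2 (3.96), Itgbl1 (11.4), Lum (21.2) and Pi16 (21.6), and as the lowest for Col5a3 (3.61). Among CCl4 hearts, replicate 3 stood apart as the highest for Comp (65.6 RPKM), Thbs1 (9.33), Fn1 (66.9), Wisp2 (35.7) and Cd68 (16.2).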

How the results depend on the processing

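Over 27 other settings, the log2 fold change stayed above 0 for all of the 10 genes except Thbs1, and 0 of them passed, except with array weights. Array weights called 2249 genes (770 higher, 1479 lower), 6 of the 10 among them. Thbs1 turned to -0.035 with a pseudocount of 0.1, -0.077 with voom, and -0.46 in hearts with Xist below 1 RPKM; leaving out 1 heart at a time gave -0.24 to 0.32, with -0.24 without CCl4 replicate 3 and -0.000752 without Control replicate 6. Genes called over the whole table were 0 to 47 with 1 heart left out (47 without CCl4 replicate 1, 31 without Control replicate 1, 2 without CCl4 replicate 6 and 1 without CCl4 replicate 4), 1 without both Control replicate 1 and CCl4 replicate 4, and 98 in hearts with Xist below 1 RPKM; the cause was not tested. The median of the 10 ranged from 0.39 to 0.91 with 1 heart left out. At an unadjusted p under 0.05, 226 genes were higher and 1209 lower, against 772 and 788 with median-of-ratios scaling, 144 and 1578 with TPM scaling, and 641 and 591 without mitochondrial RNA. The median of all genes was -0.10 with TPM scaling. A replicate block called 0 genes; same-numbered hearts correlated at -0.47 to 0.23 in their deviations, and 2 of 6 numbers were their own best match, so the numbers were not taken as pairs, although same-numbered hearts were alike in having or lacking Xist. RPKM precision for Tnc and Fap is limited by their low level.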
